A study of Mus musculus with 12 samples.

Results

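Hdc encodes histidine decarboxylase, the enzyme that makes histamine, and it was followed here together with 9 genes of mast cells and of histamine handling in mouse embryonic lung. The group holds Hdc, Cpa3, Kit, Mcpt4, Cma1, Ms4a2, Tpsb2, Fcer1a, Slc18a2 and Hnmt, 10 genes of the 22180 measured, and all 10 were on the array with 1 probe set each. The members were chosen by gene symbol, and Hdc was selected on its measured levels, already known to be high on the Dicer mutant arrays, so its values there are given as a description with no test. The other 9 stand beside it for their roles as mast cell or histamine genes. They and the marker lists used below were chosen with earlier results of these data known. Their p-values and counts are therefore not those of genes picked without sight of the data.

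Total RNA of whole lungs at E14.5 was hybridised to 12 single-colour arrays, 4 for each of 3 genotypes. Dicer mutant lungs had both Dicer copies floxed in the presence of Shh+/Cre (labelled Dicerflox/flox;Shh+/Cre). Yy1 mutant lungs had both Yy1 copies floxed with the same Cre allele (Yy1flox/flox;Shh+/Cre), and control lungs carried Shh+/Cre alone, so all 3 genotypes share the Cre allele at 1 Shh copy. Shh is expressed in the epithelium of the embryonic lung, and mast cells derive from blood-forming progenitors. In which cells recombination took place was not measured, and the labels do not say whether a specimen was 1 embryo or a pool. The p-values therefore measure the spread between these specimens.

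Values are log2 expression levels, so a difference of 1 is a factor of 2 in signal. The 12 array medians lay between 5.99 and 6.08. The Dicer1 probe set read 8.19 ± 0.115 in Dicer mutants, 8.67 ± 0.134 in Yy1 mutants and 8.81 ± 0.165 in controls (SD, n = 4 each). The Yy1 probe set read 8.84 ± 0.104 in Yy1 mutants and 9.03 ± 0.071 in controls. Whether these probe sets lie in the deleted parts of the genes was not examined. The Y-linked gene Eif2s3y stood at 7.84 in Dicer mutant 4, 7.99 in Yy1 mutant 2 and 5.92 in Yy1 mutant 3. On the other 9 arrays it was at most 4.48. All 3 arrays with raised Eif2s3y are mutant arrays and none is a control, so this signal was not balanced between the genotypes. Counts of called members are given without these 3 arrays as well. That fit lacks Yy1 mutants 2 and 3, of 4 Yy1 mutant arrays, so a lost call need not mean a smaller difference.

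Mast cells store histamine with proteases in granules and release both when IgE on the high-affinity receptor is cross-linked. Progenitors that carry the receptor tyrosine kinase Kit seed the tissues, and Cpa3, a carboxypeptidase, is expressed from early stages of the lineage, while the chymases and tryptases mark granule maturation. Histamine is made by histidine decarboxylase from histidine, moved into granules by the vesicular transporter Slc18a2 and inactivated in tissue by the methyltransferase Hnmt. Hdc is also expressed by basophils, other myeloid cells, enterochromaffin-like cells of the stomach and histaminergic neurons.

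The proximal promoters of 4 members are shown because Hdc had the largest difference, Cpa3 and Kit were the mast cell genes called higher, and Ms4a2 is an IgE receptor gene that was not called. Sequences are from RefSeq (GRCm38.p6), the first listed start of each gene, 250 bases before to 50 after it, written 5′ to 3′ on the gene's strand. Capitals mark matches on either strand to 3 motifs, picked after the windows had been read. The GC box was searched as GGGCGG. The GATA motif had the letters AGATAA. For the TATA motif they were TATAAA. The E-box motif CANNTG, where N is any base, was searched too and is not marked. The windows are chr2:126618629-126618928 (minus strand) for Hdc, chr3:20242132-20242431 (minus) for Cpa3, chr5:75574737-75575036 (plus) for Kit and chr19:11623670-11623969 (minus) for Ms4a2.
Hdc: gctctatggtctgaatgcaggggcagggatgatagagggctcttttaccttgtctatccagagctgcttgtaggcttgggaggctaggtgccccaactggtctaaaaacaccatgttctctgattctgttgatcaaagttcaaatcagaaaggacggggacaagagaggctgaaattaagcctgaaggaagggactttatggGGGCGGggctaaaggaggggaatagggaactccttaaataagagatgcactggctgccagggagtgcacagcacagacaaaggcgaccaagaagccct
Cpa3: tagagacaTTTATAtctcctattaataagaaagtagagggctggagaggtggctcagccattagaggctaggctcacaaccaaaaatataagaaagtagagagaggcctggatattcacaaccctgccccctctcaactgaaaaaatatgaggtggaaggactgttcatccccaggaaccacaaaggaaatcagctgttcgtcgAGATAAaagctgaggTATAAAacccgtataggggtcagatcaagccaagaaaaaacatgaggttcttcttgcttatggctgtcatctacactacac
Kit: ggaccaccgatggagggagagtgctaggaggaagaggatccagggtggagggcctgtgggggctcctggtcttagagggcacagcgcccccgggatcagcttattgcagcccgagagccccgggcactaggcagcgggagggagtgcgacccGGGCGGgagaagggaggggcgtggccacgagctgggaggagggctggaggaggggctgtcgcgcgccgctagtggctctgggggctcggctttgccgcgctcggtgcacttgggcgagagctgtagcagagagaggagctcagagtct
Ms4a2: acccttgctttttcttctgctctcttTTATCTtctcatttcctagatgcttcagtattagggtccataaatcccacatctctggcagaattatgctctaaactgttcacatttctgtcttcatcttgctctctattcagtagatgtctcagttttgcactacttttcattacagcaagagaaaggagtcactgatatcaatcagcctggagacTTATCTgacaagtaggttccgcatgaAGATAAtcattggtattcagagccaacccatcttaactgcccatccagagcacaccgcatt
The Hdc window held 1 GC box and neither of the other marked motifs, and so did the Kit window. The Cpa3 window held 1 GATA and 2 TATA matches, and the Ms4a2 window held 3 GATA matches. E-box matches numbered 1 in Hdc, 2 in Cpa3, 1 in Kit and 0 in Ms4a2. Among the 9 members with an entry, the GATA letters occurred in Cpa3, Ms4a2, Fcer1a and Slc18a2, that is in 4 windows. Over 27025 promoter windows of the same length, 35.9% held the GC box, 11.4% the GATA motif, 14.2% the TATA motif and 72.1% the E-box. The matches describe the letters of these windows and nothing about binding.

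Hdc was far higher in Dicer mutant lungs than in either of the other genotypes. It read 9.45, 9.61, 8.29 and 9.69 on Dicer mutant arrays 1 to 4, against 6.21, 6.52, 6.13 and 5.85 on the Yy1 mutant arrays and 5.35, 6.04, 5.47 and 5.65 on the controls. All 4 Dicer mutant arrays lay above all 8 others, and Dicer mutant 3 was the lowest of the 4 by a clear margin. The level in Dicer mutants exceeded that in controls by 3.63 (SE 0.263), a 12.4-fold difference, and that in Yy1 mutants by 3.08, or 8.46-fold. In both comparisons Hdc ranked 1 of 22180 genes by the size of its increase, which is the value it was chosen for. The SE takes no account of that choice. With any 1 array left out, the difference from controls stayed between 3.49 and 3.95.

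In Yy1 mutant lungs Hdc averaged 6.18 ± 0.276 against 5.63 ± 0.299 in controls (SD, n = 4 each). The 2 groups overlapped through control 2, at 6.04, and Yy1 mutant 4, at 5.85. The difference of 0.55 (95% interval -0.02 to 1.12) did not pass the test (limma, adjusted p = 0.277, and 0.058 to 0.648 over 20 alternatives).

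**Figure D1:**
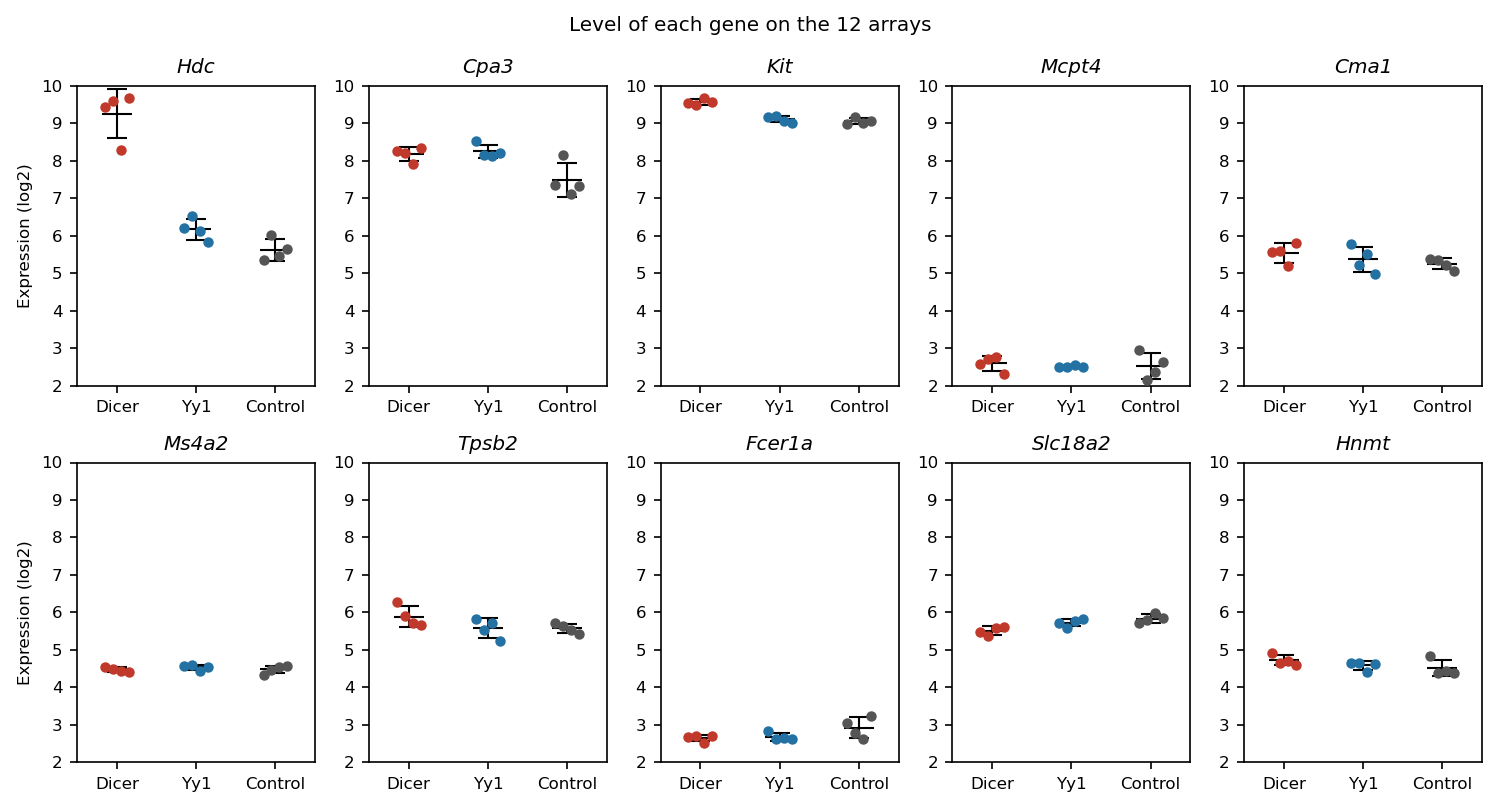
Log2 level (vertical axes, the same range in every panel) of the 10 genes on each array, by genotype. Points are single arrays and bars the mean ± SD of 4 arrays. The Hdc panel has the 4 Dicer mutant arrays between 8.29 and 9.69, while Mcpt4 and Fcer1a stay below 3.3 everywhere.

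Of the 9 other genes, 2 rose and 1 fell in Dicer mutants against controls. The remaining 6 were not called, where 8.75% of all genes were called in this comparison, 4.78% higher and 3.97% lower. Kit lay above and Slc18a2 below the controls with no overlap, as 7.5% and 8.45% of all genes did. In Yy1 mutants against controls 1 rose and 8 were not called (6.61% of all genes called, 2.77% higher and 3.84% lower), and between Dicer and Yy1 mutants 1 was higher and 8 were not called (4.96% of all genes called, 3.39% higher and 1.57% lower). The median difference of the 9 genes was 0.21 in Dicer mutants and 0.05 in Yy1 mutants, against -0.03 and 0.002 over all genes. Both mutants are compared with the same 4 control arrays. Without the 3 arrays with raised Eif2s3y, 1 gene, Kit, stayed called in Dicer mutants, and the call of Cpa3 in Yy1 mutants was lost (limma). That fit called 976 of all 22180 genes in Dicer mutants and 606 in Yy1 mutants.

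Cpa3, the mast cell carboxypeptidase, was higher in both mutants by about the same amount. It read 8.25, 8.22, 7.92 and 8.35 in Dicer mutants 1 to 4, then 8.52, 8.15, 8.13 and 8.22 in Yy1 mutants, against 7.36, 8.15, 7.11 and 7.34 in controls. Controls 1, 3 and 4 lay below every mutant array, and control 2 lay within the range of the mutants. The control group therefore overlapped both mutant groups, while 16% of all genes showed no overlap between Dicer mutants and controls and 12.6% none between Yy1 mutants and controls, 5.57% higher and 7.05% lower. Cpa3 rose by 0.70 (SE 0.183) in Dicer mutants, 1.62-fold (limma, adjusted p = 0.0301), and by 0.77 in Yy1 mutants, 1.70-fold (adjusted p = 0.0222). The difference between Dicer and Yy1 mutants was -0.07 (95% interval -0.46 to 0.32, adjusted p = 0.889), although Hdc differed 8.46-fold between the same arrays.

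The Cpa3 calls depended on single arrays. In Dicer mutants, leaving out control 1, 3 or 4 gave an adjusted p of 0.083, 0.0912 or 0.078, and leaving out Dicer mutant 1, 2 or 4 gave 0.0626, 0.0733 or 0.0882. In Yy1 mutants, leaving out the same controls gave 0.0679, 0.0658 or 0.0589, and leaving out Yy1 mutant 1 gave 0.0745. A fit of Dicer mutants and controls alone gave 0.0668 in Dicer mutants. Without control 2 the differences were 0.92 in Dicer mutants (adjusted p = 0.000618) and 0.99 in Yy1 mutants (adjusted p = 0.000474), and without the 3 arrays with raised Eif2s3y they were 0.64 (adjusted p = 0.136) and 0.88 (adjusted p = 0.0976).

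Kit, the receptor for stem cell factor on mast cells and many other progenitors, rose in Dicer mutants and not in Yy1 mutants. Its levels were 9.55, 9.49, 9.67 and 9.58 in Dicer mutants 1 to 4, 9.16, 9.21, 9.08 and 9.02 in Yy1 mutants, and 8.99, 9.17, 9.02 and 9.08 in controls. The Dicer mutants lay above both other groups with no overlap, and the Yy1 mutants and controls interleaved. The increase over controls was 0.51 (SE 0.0683), 1.42-fold (adjusted p = 0.000439, and at most 0.00721 over 20 alternatives). Over Yy1 mutants it was 0.45 (adjusted p = 0.00144), where 13.8% of all genes had no overlap between these groups, 7.19% higher and 6.6% lower. Yy1 mutants differed from controls by 0.05 (95% interval -0.09 to 0.20, adjusted p = 0.759). Its probe set lay in the 91.8 percentile of all genes by mean signal, and Kit is expressed by several cell types of whole lung.

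**Figure D2:**
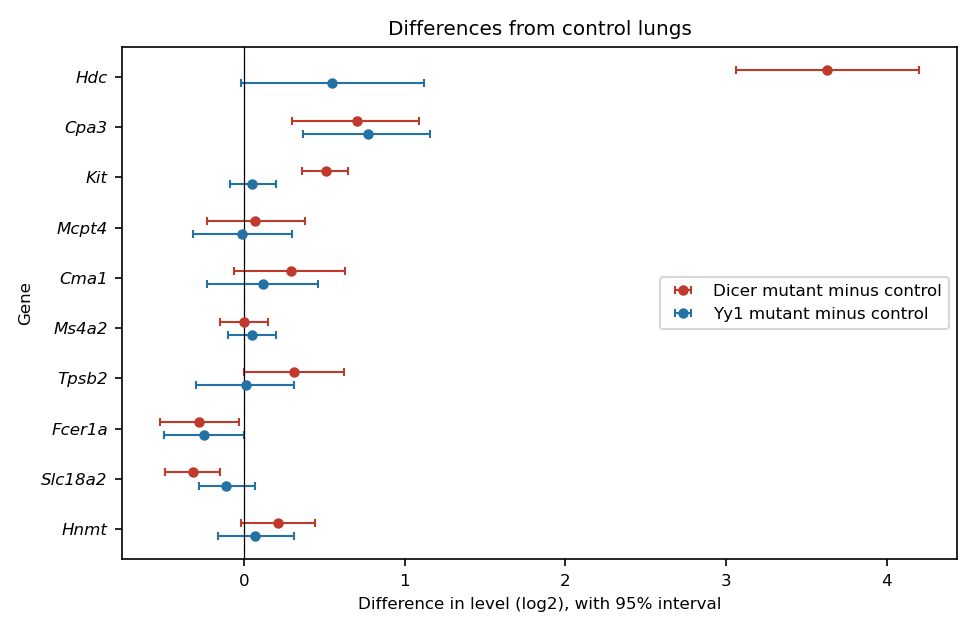
Difference in log2 level from control lungs for the 10 genes, Dicer mutants above Yy1 mutants in each row, with the 95% interval of the model. The Hdc interval in Dicer mutants is a description with no test and takes no account of the choice of Hdc by these values. Hdc lies at 3.63 in Dicer mutants, the Cpa3 points of both mutants lie close together at 0.70 and 0.77, and 7 other genes lie within 0.4 of 0 in both mutants.

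The chymases and the tryptase of the mast cell granule showed no called change. Mcpt4, a chymase of connective tissue mast cells, read 2.59, 2.71, 2.77 and 2.33 in Dicer mutants, between 2.51 and 2.55 in Yy1 mutants, and 2.95, 2.15, 2.38 and 2.64 in controls. These are among the lowest signals on the array, in the 2.3 percentile of all genes. No detection call came with the table, so whether such a probe set stood above background is unknown. Mcpt4 differed by 0.07 in Dicer mutants (95% interval -0.23 to 0.38, adjusted p = 0.824) and by -0.01 in Yy1 mutants (adjusted p = 0.985).

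Cma1, the chymase also called mast cell protease 5, read 5.57, 5.59, 5.20 and 5.82 in Dicer mutants, 5.78, 5.22, 5.51 and 4.99 in Yy1 mutants and 5.39, 5.35, 5.21 and 5.07 in controls. The 3 groups overlapped, and the difference in Dicer mutants was 0.29 (95% interval -0.06 to 0.63, adjusted p = 0.317). Tpsb2, the tryptase also called mast cell protease 6, read 6.28, 5.90, 5.71 and 5.66 in Dicer mutants, between 5.24 and 5.83 in Yy1 mutants and between 5.42 and 5.71 in controls. Dicer mutant 1 was the highest, and the difference from controls was 0.31 (adjusted p = 0.224, and 0.0682 to 0.436 over 20 alternatives). Chymases and tryptases are families of similar sequence, and cross-hybridisation between their members was not examined.

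The alpha and beta chains of the IgE receptor were not called in either mutant, whereas the shared gamma chain Fcer1g, given with the further mast cell genes, was called higher in both. Ms4a2, the beta chain, read between 4.42 and 4.55 in Dicer mutants, 4.43 and 4.61 in Yy1 mutants and 4.34 and 4.56 in controls, so its 12 values spanned less than 0.3. Its difference in Dicer mutants was below 0.01 in size (95% interval -0.15 to 0.15, adjusted p = 0.988). Fcer1a, the alpha chain that binds IgE, read 2.69, 2.69, 2.52 and 2.71 in Dicer mutants, between 2.61 and 2.83 in Yy1 mutants, and 3.06, 2.77, 2.63 and 3.25 in controls. It was lower by 0.28 in Dicer mutants, with adjusted p = 0.175, and by 0.25 in Yy1 mutants, with adjusted p = 0.251. Its signal lay in the 3.1 percentile of all genes.

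The genes that move and inactivate histamine were not called higher with Hdc. Slc18a2, the vesicular monoamine transporter, read 5.48, 5.37, 5.59 and 5.61 in Dicer mutants, 5.73, 5.59, 5.77 and 5.82 in Yy1 mutants and 5.71, 5.80, 5.99 and 5.84 in controls. All Dicer mutant arrays lay below all controls, and it fell by 0.32 (SE 0.0808, adjusted p = 0.0245). It did not pass when control 3 or 4 was left out (adjusted p = 0.0785 or 0.0528), when Dicer mutant 1 or 2 was (0.0534 or 0.0815), or without the 3 arrays with raised Eif2s3y (0.0539). Without those 3 arrays the difference of Slc18a2 was -0.353 (SE 0.0895), so its size was no smaller. In Yy1 mutants Slc18a2 differed by -0.11 (adjusted p = 0.545). Hnmt, the histamine methyltransferase, averaged 4.73 ± 0.138 in Dicer mutants, 4.59 ± 0.110 in Yy1 mutants and 4.51 ± 0.220 in controls (SD, n = 4 each). Its difference of 0.21 in Dicer mutants was not called (adjusted p = 0.264) but passed without control 1, the highest control, where it was 0.32 (adjusted p = 0.0461).

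Whether Hdc moved with the mast cell genes from array to array was asked within genotypes, because the Dicer mutant arrays form a separate cluster in Hdc and a correlation over all arrays would restate that gap. Each value was taken as its deviation from the mean of its genotype, and 9 relations were computed. Over 12 arrays Cpa3 gave the highest correlation with Hdc, Pearson's r = 0.58 (p = 0.0302) and Spearman's rho = 0.72 (p = 0.0269), both two-sided exact permutation tests within genotypes. Correlations were also taken without the 2 arrays farthest from the median of Hdc, Dicer mutants 3 and 4. The deviations still came from genotype means over all 4 arrays, so the 2 arrays kept an influence on them. Calculated so, r was 0.55 for Cpa3, while it was 0.64 for Kit and 0.20 for Cma1, so Cpa3 was then no longer the highest. Values with the means taken anew were not computed. Among 22179 genes the r of Cpa3 lay in the 97.2 percentile. In a limma fit of all genes on genotype and Hdc, Cpa3 had a slope of 0.396 (SE 0.167) per unit of Hdc with adjusted p = 0.999, so the relation fails the correction over all genes. The slope was 0.222 without control 2 and 0.688 without Dicer mutant 3 (adjusted p = 1 and 0.459, limma). The same fit called 0 of 22179 genes (0%), with 858 (3.87%) at an unadjusted p under 0.05, Cpa3 alone among the 9 members.

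Control 2 was the highest control for both genes, with Hdc 0.41 and Cpa3 0.66 above the control mean, and Dicer mutant 3 was the lowest Dicer mutant for both, 0.97 and 0.27 below. Among the Yy1 mutants the order differed, since Hdc was highest on array 2 and Cpa3 on array 1. The r of the other members ran from -0.54 for Mcpt4 (exact permutation p = 0.0919) to 0.53 for Cma1 (p = 0.119). Ms4a2 and Tpsb2 both gave 0.26 and Fcer1a 0.20, with exact permutation p of 0.403, 0.546 and 0.482. Slc18a2 gave -0.41 (p = 0.266, exact permutation) and Hnmt -0.19 (p = 0.509, exact permutation).

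For Kit, r with Hdc within genotypes over 12 arrays was 0.03 (exact permutation p = 0.937). The correlations over the 8 Yy1 mutant and control arrays alone were added after the plot of Kit against Hdc had been seen, for all 9 genes, which makes 18 relations in all. They leave out the Dicer mutants, where the array with the lowest Hdc had the highest Kit, and so are a description with no test. For Kit, r was 0.97 and Spearman's rho was 1. Without Yy1 mutant 2 and control 2, the arrays farthest from the median, r was 0.93. Over these 8 arrays 8 of 22179 genes had a higher r. The 8 Kit values spanned 8.99 to 9.21, and the limma slope of 0.273 (SE 0.123) had adjusted p = 0.514 over all genes. Cpa3 over the same 8 arrays gave r = 0.59, or 0.30 without the same 2 arrays and with the means likewise kept.

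**Figure D3:**
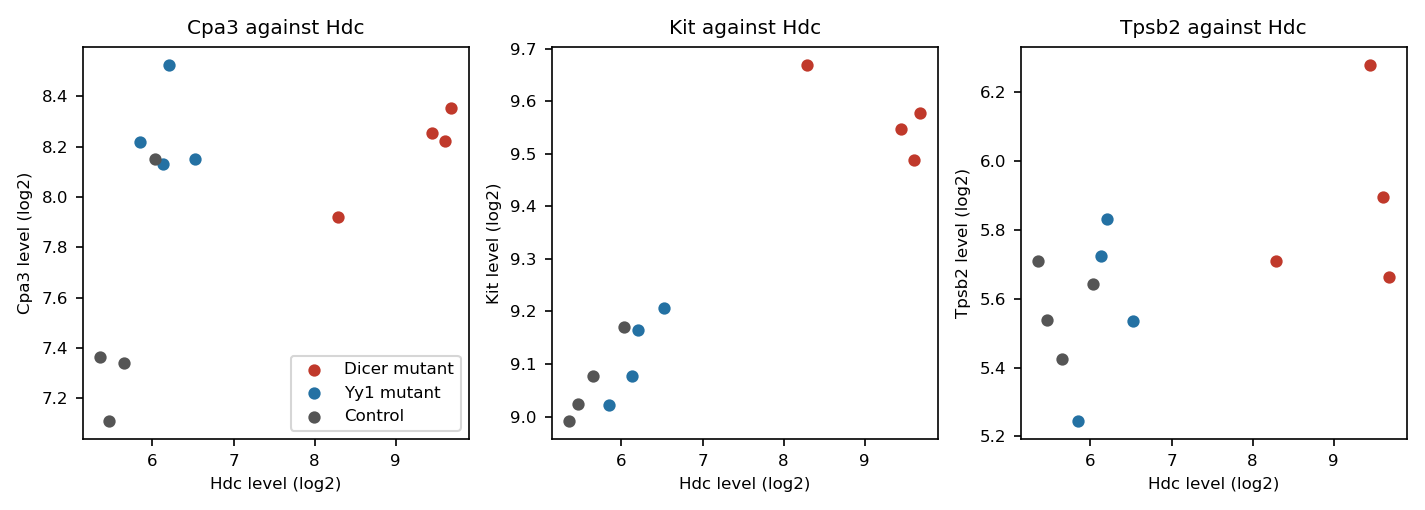
Log2 level of Cpa3, Kit and Tpsb2 (vertical axes, a range of their own in each panel) against the log2 level of Hdc on the 12 arrays, coloured by genotype. The Dicer mutant arrays lie apart to the right in every panel, and the Cpa3 levels of Dicer mutants (7.92 to 8.35) and Yy1 mutants (8.13 to 8.52) overlap.

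Further mast cell genes gave a mixed picture. Of 25 listed, 24 were measured, and 4 rose in Dicer mutants while 20 were not called. The median difference of the 24 was 0.00 in Dicer mutants and 0.11 in Yy1 mutants, against -0.03 and 0.002 over all genes. Over all genes, 4.78% were called higher in Dicer mutants and 2.77% in Yy1 mutants. Fcer1g, the signalling chain shared by Fc receptors, rose by 0.83, the granule proteoglycan serglycin (Srgn) by 0.58, the prostaglandin D synthase Hpgds by 0.51 and the protease inhibitor Serpinb1a by 0.29. Fcer1g, Srgn and Hpgds are also expressed by macrophages. In Yy1 mutants 2 rose, Fcer1g by 0.82 and Hpgds by 0.53, while Srgn differed by 0.10 (limma, adjusted p = 0.538). Between the mutants 1 of the 24 was called, Srgn, 0.48 higher in Dicer mutants (limma, adjusted p = 0.00192). In that comparison 3.39% of all genes were called higher. Of the genes not called in this list and in that of the Kit pathway, 6 are named here after their values had been seen. They are Tpsab1, Mcpt1, Mrgprb2, Gata2, Mitf and, from the Kit pathway alone, Kitl. The tryptase Tpsab1 read 5.51 ± 0.246 in Dicer mutants, 5.50 ± 0.116 in Yy1 mutants and 5.43 ± 0.118 in controls (SD, n = 4 each). The chymase Mcpt1 differed by -0.12 in Dicer mutants and the receptor Mrgprb2 by less than 0.01, neither called, and the lineage factors Gata2 (0.29, adjusted p = 0.075) and Mitf (0.08, adjusted p = 0.718) were not called either. Without the 3 arrays with raised Eif2s3y, 3 of the 24 rose in Dicer mutants and 1 in Yy1 mutants, where 976 and 606 of all 22180 genes were called in either direction. Of 9 genes of the Kit pathway, Kit alone was called in Dicer mutants. Kitl, the ligand of Kit, differed by 0.23 in Dicer mutants (adjusted p = 0.0873) and by -0.01 in Yy1 mutants (adjusted p = 0.97).

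Basophils carry Hdc, Cpa3 and the IgE receptor too. Of 8 basophil genes, 2 rose in Dicer mutants, the integrin Itga2 by 0.56 and the transcription factor Cebpa by 0.84, and 0 were called in Yy1 mutants by limma (1 at an unadjusted p under 0.05, Csf2rb). Over all genes, 4.78% were called higher in Dicer mutants, and 6.61% were called in either direction in Yy1 mutants. Itga2 and Cebpa are expressed in epithelium as well. The mean level of the 8 genes was 6.37 to 6.5 on Dicer mutant arrays, above all other arrays. It was 6.11 to 6.3 on Yy1 mutant arrays and 6.12 to 6.26 on controls. That mean takes in Itga2 and Cebpa, and its difference was not tested. The proteases that define basophils were not called. Mcpt8 read 5.12 ± 0.144 in Dicer mutants, 5.06 ± 0.108 in Yy1 mutants and 5.03 ± 0.107 in controls, and Prss34 differed from controls by -0.04 and 0.04. The surface receptor Cd200r3 differed by -0.08 and -0.17.

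Among the other histamine genes, no receptor or catabolic enzyme was called higher in either mutant. Of 14 tested beside Hdc, 1 fell in Dicer mutants, Slc18a2 as given, and 13 were not called. Over all genes, 8.75% were called in Dicer mutants (3.97% lower) and 6.61% in Yy1 mutants (3.84% lower). The receptor Hrh1 differed by -0.11, Hrh2 by 0.01, Hrh3 by -0.10 and Hrh4 by 0.28 (adjusted p = 0.274). The diamine oxidase Aoc1, which degrades extracellular histamine, differed by -0.26 (adjusted p = 0.322). In Yy1 mutants 2 fell, the monoamine oxidase Maob by 0.67 and the cation transporter Slc29a4 by 0.33. Neither these calls nor that of Slc18a2 passed without the 3 arrays with raised Eif2s3y. Of 6 genes for related decarboxylases, 0 were called in Dicer mutants by limma (2 at an unadjusted p under 0.05), and Ddc, which makes dopamine and serotonin from their precursors, fell by 0.41 in Yy1 mutants, a call that was lost without the same 3 arrays. It was 0.65 higher in Dicer than in Yy1 mutants (adjusted p = 0.00063).

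The genes beside Hdc on the chromosome showed no called difference in either mutant. In the RefSeq gene order the protein-coding neighbours are Slc27a2 and Atp8b4 on one side and Gabpb1 and Usp8 on the other. In Dicer mutants they differed from controls by 0.02, 0.06, -0.05 and 0.11, with adjusted p of 0.915, 0.776, 0.682 and 0.368. Their differences in Yy1 mutants were -0.06, -0.06, -0.15 and 0.09, with adjusted p of 0.827, 0.832, 0.195 and 0.573 (limma). All Yy1 mutant arrays lay below all controls for Gabpb1, as for 7.05% of all genes. Called genes made up 8.75% of all genes in Dicer mutants and 6.61% in Yy1 mutants.

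Markers of some other cells moved with the genotypes. The lists were chosen with earlier results of these data known, so the counts are not independent evidence. Over all genes, 4.78% were called higher and 3.97% lower in Dicer mutants. The shares in Yy1 mutants were 2.77% and 3.84%. Of 12 macrophage genes, 10 rose in Dicer mutants and 9 in Yy1 mutants, with mean list levels of 7.39 to 7.54 on Dicer mutant arrays, 7.19 to 7.41 on Yy1 mutant arrays and 6.80 to 6.94 on controls. Without the 3 arrays with raised Eif2s3y, 8 and 2 rose, where 976 and 606 of all 22180 genes were called in either direction. Of 5 measured megakaryocyte and platelet genes, 3 rose in Dicer mutants, the chemokines Pf4 by 0.67 and Ppbp by 0.70 and the platelet glycoprotein Gp9 by 0.68, and 0 in Yy1 mutants by limma (0 also at an unadjusted p under 0.05). Without the 3 arrays, 2 stayed called in Dicer mutants. Their mean level was 7.09 to 7.23 in Dicer mutants, 6.69 to 6.80 in Yy1 mutants and 6.60 to 6.80 in controls. Of 12 epithelial genes, 9 fell in Dicer mutants and 10 in Yy1 mutants, and 5 and 8 without the 3 arrays. Epcam (0.11) and Sox9 (0.22) were not called in Dicer mutants but lay above all controls, as 7.5% of all genes did. Between the mutants 6 of the 12 were called higher in Dicer mutants and 2 lower (3.39% and 1.57% of all genes). Lists for granulocyte precursors (10 genes), pulmonary neuroendocrine cells (11 measured genes) and melanocytes (6 genes) held 0 calls in either mutant by limma. At an unadjusted p under 0.05 they held 1, 2 and 1 in Dicer mutants and 0, 1 and 0 in Yy1 mutants. The part of these cell types in the levels of Hdc, Cpa3 and Kit was not tested. In whole-lung RNA, a change in the number of cells of a type and a change in RNA per cell cannot be told apart.

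**Figure D4:**
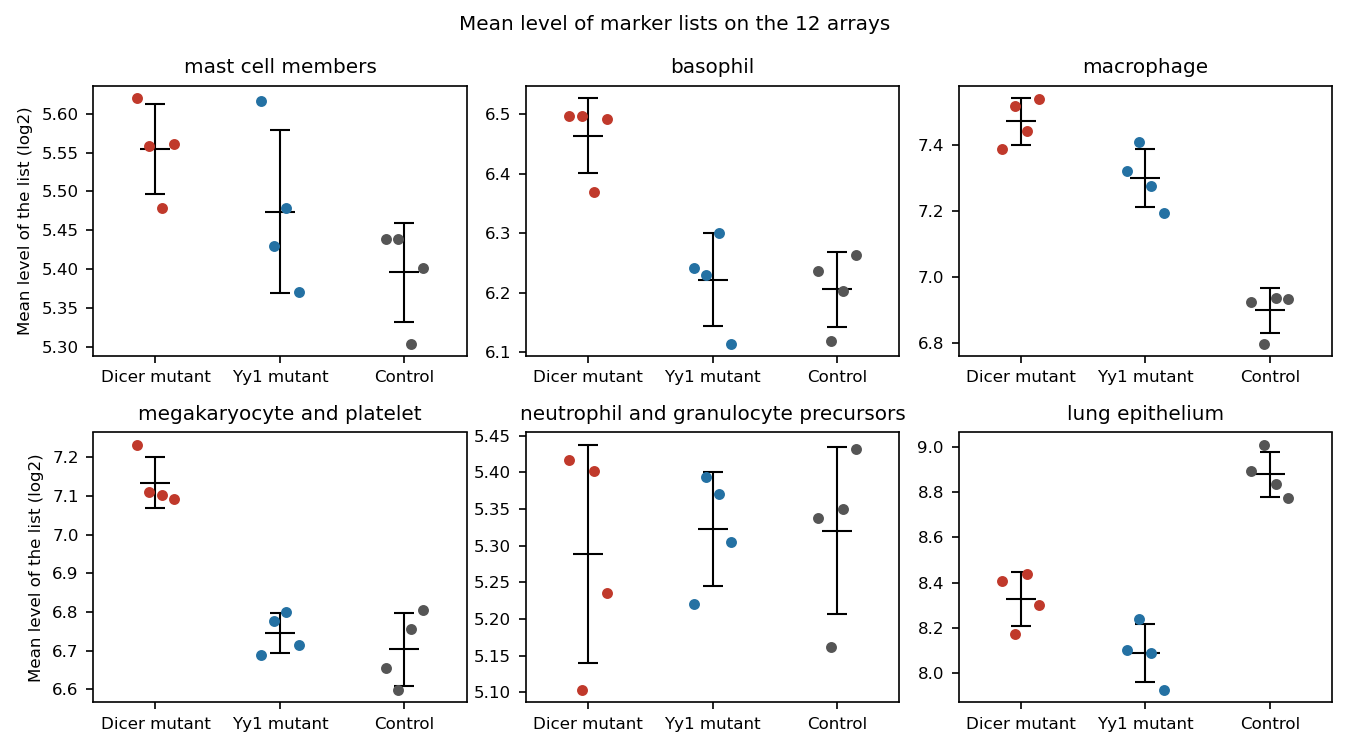
Mean log2 level of the genes of 6 marker lists on each array (vertical axes, a range of their own in each panel), by genotype, with mean ± SD of 4 arrays. The mean of the 8 mast cell genes without Hdc and Hnmt spans 5.48 to 5.62 in Dicer mutants and 5.30 to 5.44 in controls. All Dicer mutant arrays thus lie above all controls in this mean, a difference that was not tested. The Yy1 mutants, at 5.37 to 5.62, overlap both groups. The macrophage lists of both mutants lie above the controls, and the platelet list is raised in Dicer mutants.

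Among the 5 genes whose pattern over the 12 arrays was most like that of Hdc, Itga2 of the basophil list was the only one from the lists used here. The 5 were Gramd1b, a sterol transporter (r = 0.989), the hydrolase Abhd2 (0.985), the Golgi protein Golm1 (0.985), Itga2 (0.980) and the acyl-CoA synthetase Acsl4 (0.973), values that take in the gap between the Dicer mutants and the other arrays. Gramd1b averaged 7.57 in Dicer mutants, 6.54 in Yy1 mutants and 6.30 in controls. Acsl4 averaged 8.70 in Dicer mutants, 7.86 in Yy1 mutants and 7.82 in controls. Kit gave 0.93 over the same arrays, in the 99.8 percentile of all genes, and Slc18a2 gave -0.83, in the 0.7 percentile, and both values take in the same gap. By deviations within genotypes, the most alike were the pseudogene Rps15a-ps4 (r = 0.912), Mgme1 (0.891), Isoc1 (0.879), Zfp458 (0.872) and Zfp882 (0.871), each with an adjusted p of the limma slope of at least 0.846.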

How the data were processed

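The deposited table holds log2 expression values for 41345 probe sets on 12 arrays, deposited with nearly equal array medians. The normalisation is not stated in the labels, and the log base was read from the range of 1.10 to 13.6. The labels' protocols give Trizol extraction, DNase treatment and the standard labelling of the array maker. The platform annotation paired 23521 probe sets with 1 symbol. The 1814 with several symbols and the 16010 with no listed gene were left out. The probe set with the highest mean stood for a gene, giving 22180 genes.

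All 3 genotypes were fitted in one model with limma 3.58.1 (R 4.3.3). Two-sided p-values were adjusted over all 22180 genes (Benjamini-Hochberg), with calls at adjusted p under 0.05. A second fit had genotype and the Hdc level as terms. The fits were also run on simulated data, and the outcome is not reported here. Named genes are the members, called or histamine and basophil genes of 11 other lists, the neighbours of Hdc and the 5 genes most like it by each measure, without predicted genes, Riken clones and sex-linked genes. Some further genes that were not called are named in addition. Members and lists were chosen with earlier results of these data known. Tables used Python 3.11.15 and pandas 2.3.3. The number of arrays limits the precision.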

Additional observations from a re-analysis of the deposited data

Results flagged for a closer look

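Kit differed between the mutants, by 0.45 (Dicer minus Yy1 mutant, limma adjusted p = 0.00144), with all 4 Dicer mutant arrays above all 4 Yy1 mutant arrays. Among 30 groups of 4 arrays examined, 4 held an array far from the other 3, where chance gives about 1 in 20. For Fcer1a these were Dicer mutant 3 at 2.52, against 2.69 to 2.71, and Yy1 mutant 1 at 2.83, against 2.61 to 2.64. For Hnmt they were Yy1 mutant 3 at 4.42, against 4.63 to 4.66, and control 1 at 4.84, against 4.38 to 4.43. Both genes lie in the lowest 16 percent of signals. Hdc on Dicer mutant 3 came close, with a gap to the nearest of the other 3 of 0.828 of the group's range, just under the limit used.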

How the results depend on the processing

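Across 21 alternatives, 760 differences and slopes of single members were recomputed. Of these, 40 were differences of Hdc that were not tested, and all 40 stayed positive. Of the other 720, 701 kept their direction where called and their side of the threshold, 18 lost a call (Cpa3 in both mutants and Slc18a2 in Dicer mutants), 1 gained one (Hnmt) and 0 called values reversed. Leaving out the 3 arrays on which Eif2s3y was high, called members numbered 1 in Dicer mutants and 0 in Yy1 mutants against controls. All called genes then numbered 976, 606 and 435 for Dicer mutants against controls, Yy1 mutants against controls and Dicer against Yy1 mutants, against 1940, 1465 and 1101 with all arrays, in a fit with 9 arrays. With 1 array left out, called members ranged from 1 to 3 in Dicer mutants and from 0 to 1 in Yy1 mutants, and all called genes from 1275 to 1991, from 1020 to 1455 and, between the mutants, from 726 to 1180. The lowest counts of 1275 and 726 came without Dicer mutant 4. With the replicate number as a block, the called genes numbered 1848, 1301 and 997, and no call of a member changed. Same-numbered arrays of different genotypes correlated in their deviations at -0.161 to 0.19, over 0.1 in 3 of 12 pairs, so the numbers were not taken to pair the arrays. Mcpt4, Cma1, Ms4a2, Fcer1a and Hnmt gave no value without the dimmest 30% of genes, since all lie there. Their dim signal limits what a difference can show.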
